A study of Homo sapiens with 6 samples.

Results

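The genes described here are 10 genes of the recurrent ETS rearrangements of prostate cancer (PCa), namely TMPRSS2, SLC45A3, NDRG1, CANT1, MIPOL1, ERG, ETV1, ETV4, ETV5 and ETS2. They were taken by gene symbol out of 55765 symbols in the count data. RNA-seq counts were examined in C4-2, an established castration-resistant cell line derived from LNCaP, so that all libraries come from 1 line. Cells in DMEM with 5% FBS received for 72 h either the solvent DMSO or 1 nM R1881, a synthetic androgen used at a supraphysiological level (SAL). There were 3 DMSO and 3 SAL libraries of total RNA, numbered 1 to 3 in each group, and libraries with the same number were treated as pairs. The comparison asks how SAL changes the transcriptome of castration-resistant PCa (CRPC) cells.

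ETS proteins are transcription factors that bind DNA through a shared winged-helix domain centred on GGA. In many prostate tumors a chromosomal rearrangement joins the promoter and first exons of a gene that is active in luminal cells to an ETS gene, most often TMPRSS2 to ERG, and androgen then drives the ETS gene through its partner. TMPRSS2, SLC45A3, NDRG1 and CANT1 are such regulatory partners, ERG, ETV1, ETV4 and ETV5 are the ETS genes most often joined to them, ETS2 lies between ERG and TMPRSS2 and is lost when a deletion fuses them, and MIPOL1 hosts the ETV1 insertion for which the LNCaP lineage is known.

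SAL raised all 4 regulatory partners, NDRG1 by 21.9-fold, SLC45A3 by 7.75-fold, TMPRSS2 by 4.19-fold and CANT1 by 1.75-fold. MIPOL1 and ETS2 did not pass the test. ERG, ETV1, ETV4 and ETV5 had between 0 and 7 counts in every library, in DMSO and in SAL alike. Among the other ETS genes, SPDEF and ELK4 were raised from levels well above these. Of the 10 genes, 6 passed the filter on low counts and were tested, and 4 of these were called, against 20.8% of all 16835 tested genes called in either direction, 11.5% up-regulated and 9.37% down-regulated. None of the 6 was down-regulated by edgeR or DESeq2, nor at an unadjusted p under 0.05 in either. The 4 called genes were higher in all 3 pairs, as were 25.9% of the tested genes, and for 3 of them the log2 fold change was 1 or more, while 3.21% of all tested genes were both called and raised by that much. Which genes passed depended on their counts, so the number called among the 6 is given as a description only. In bulk RNA a higher level per cell and a larger share of expressing cells cannot be told apart.

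Counts on genes ranged from 7864471 to 11317210 in DMSO and from 9921828 to 12532355 in SAL, of which rRNA genes, left out below, took 11.9 to 27.8%. Reads outside genes made up 24.0 to 48.3% of all records tallied in counting, those aligned to several places included. All 8 luminal prostate markers had counts (summed level 2668 to 4894 CPM, that is counts per 1000000 of the library after TMM scaling, in DMSO and 4699 to 9157 in SAL, with 5 of the 8 up-regulated), while KRT5 of the basal list, PTPRC and CD3E of the leukocyte list, COL1A2 of the fibroblast list and CDH5 of the endothelial list were at 0 in all libraries. The summed basal, leukocyte and fibroblast lists reached at most 0.372, 0.246 and 10.3 CPM, and the neuroendocrine markers CHGA and SYP summed to 2.11 to 3.95 CPM. KLK3, which encodes the prostate-specific antigen and served as the check of the androgen response, rose from 800 ± 347 to 1809 ± 630 CPM (mean ± SD, n = 3), a log2 fold change of 1.21 with an adjusted p of 3.33e-07.

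Promoter sequence, 250 bases before to 50 bases after the annotated transcription start in RefSeq (GRCh38.p14), was at hand for 5 of the 10 genes, SLC45A3, ERG, ETV1, MIPOL1 and ETS2. The windows were searched on both strands for the full palindromic androgen response element (AGAACA, any 3 bases, TGTTCT), a looser form (G, any base, ACA, any 3 bases, TGT, any base, C), the single arms AGAACA and GGAACA, and the ETS motif CCGGAAGT. These are found in 0.00286%, 0.389%, 14.8%, 14% and 4.11% of all 34943 windows, and an occurrence of the full form also counts under the looser form and the first arm. The window of SLC45A3, the only regulatory partner with such sequence here, is shown with the windows of ELK4, the ETS gene next to it on the same strand, and of KLK2, another androgen-regulated partner. All 3 genes were up-regulated, and capitals mark the letters of a searched motif.
SLC45A3, chr1:205680460-205680759, minus strand: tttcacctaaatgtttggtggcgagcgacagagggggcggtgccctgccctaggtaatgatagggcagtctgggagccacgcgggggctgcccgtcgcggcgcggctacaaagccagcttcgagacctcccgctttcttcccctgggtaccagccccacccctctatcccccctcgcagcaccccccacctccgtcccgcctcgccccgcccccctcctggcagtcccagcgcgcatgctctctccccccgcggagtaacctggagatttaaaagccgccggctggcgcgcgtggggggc
ELK4, chr1:205631962-205632261, minus strand: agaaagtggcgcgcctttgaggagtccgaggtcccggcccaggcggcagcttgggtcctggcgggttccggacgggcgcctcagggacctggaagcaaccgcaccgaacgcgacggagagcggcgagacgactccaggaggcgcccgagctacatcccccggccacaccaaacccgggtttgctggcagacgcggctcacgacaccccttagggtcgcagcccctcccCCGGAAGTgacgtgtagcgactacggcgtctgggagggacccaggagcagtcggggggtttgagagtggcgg
KLK2, chr19:50873189-50873488, plus strand: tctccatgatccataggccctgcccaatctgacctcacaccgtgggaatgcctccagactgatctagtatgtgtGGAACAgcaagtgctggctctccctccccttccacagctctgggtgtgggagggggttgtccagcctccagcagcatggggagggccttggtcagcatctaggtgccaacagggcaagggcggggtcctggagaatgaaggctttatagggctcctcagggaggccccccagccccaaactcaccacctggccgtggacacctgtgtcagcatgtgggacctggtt

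The SLC45A3 window, with a GC content of 69%, holds none of the 5 motifs. The ELK4 window, with a GC content of 69.3%, holds the ETS motif with its first base at position -22 from the transcription start. The KLK2 window, with a GC content of 60.7%, holds the arm GGAACA at position -176. The windows of SPDEF, FEV, ACSL3, HERPUD1 and ATXN1, also up-regulated, hold none of the motifs, nor do those of ERG, ETS2 and MIPOL1. Single arms were found for 2 further up-regulated genes. KLK3 holds AGAACA at position -170, and ELF1 holds GGAACA at -135 and AGAACA at -82, in different windows. The down-regulated SPRY1 holds GGAACA at -101, while the down-regulated ELF3, TRIM25 and PHLDA1 hold none of the motifs. Single arms also occur for SPIC, ELK3, FOXP1, DET1 and SPRY2, which were not called, and for DUSP6 and SPRED3, which were not tested. The untested EPHA4 holds the looser form. The ETS motif is also found for the down-regulated GABPA at -67 and for DDX5 at -123, which was not called. ETV1, which had no counts, holds both AGAACA and GGAACA in 2 of its windows, which overlap. A match in these letters is a description and not a bound site, and the absence of one concerns these 300 bases only.

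NDRG1 showed the largest change of the 10 genes. It encodes a cytoplasmic protein of the N-myc downstream-regulated family that is induced by differentiation and stress, and its minus-strand locus spans chr8:134249418-134314265 in GRCh37, the build of all gene positions given here. DMSO replicates 1, 2 and 3 held 97, 496 and 295 counts, or 12.0, 67.8 and 39.4 CPM, and the SAL replicates held 1986, 12313 and 7959 counts, or 254, 1350 and 981 CPM. The lowest SAL library stood above the highest DMSO library, which was the case for 3.78% of the tested genes. The mean level went from 39.8 ± 27.9 to 862 ± 557 CPM (SD, n = 3), and the fold change within pairs was 21.2, 19.9 and 24.9. The log2 fold change was 4.45 with a standard error (SE) of 0.11, a 95% interval of 4.21 to 4.69 and an adjusted p of 2.64e-12 by edgeR's quasi-likelihood test. This was the smallest p of the 16835 genes and the log2 fold change ranked 18. In order of level, NDRG1 moved from place 5438 in DMSO to place 86 in SAL.

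SLC45A3, the gene of prostein, a membrane transporter found mainly in prostate epithelium, spans chr1:205626979-205649637 on the minus strand. DMSO gave 252, 1297 and 811 counts in the order of the replicates (31.2, 177 and 108 CPM) and SAL gave 2010, 11654 and 6970 counts (257, 1278 and 859 CPM). Here too the groups did not overlap. The mean level rose from 106 ± 73.1 to 798 ± 513 CPM. Its changes within pairs lay close together, at 3.03, 2.85 and 2.98 on the log2 scale, and the fitted log2 fold change was 2.95 (SE 0.10, adjusted p = 2.63e-11), rank 60 by size and rank 8 by p. Its place in the order of levels went from 2065 to 101.

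TMPRSS2 encodes a transmembrane serine protease of the luminal epithelium and is the most frequent partner of ERG. It spans chr21:42836227-42903043 on the minus strand, and 8.53% of its annotated exon bases are shared with MX1 on the other strand. The DMSO libraries had 539, 2416 and 1102 counts (66.8, 330 and 147 CPM) and the SAL libraries 2395, 10000 and 5821 counts (307, 1096 and 717 CPM). Each SAL library was above the DMSO library of its own pair, but DMSO replicate 2 was above SAL replicate 1, so that the groups overlapped. The mean level was 181 ± 135 CPM in DMSO and 707 ± 395 CPM in SAL. The log2 changes within pairs were 2.20, 1.73 and 2.28, and the fitted value was 2.07 (95% interval 1.82 to 2.31, adjusted p = 9.14e-09), rank 147 by size. Since reads were counted without regard to strand, reads of MX1 on the shared bases cannot be told apart from those of TMPRSS2. MX1 itself, an interferon-induced gene, was not called (log2 fold change 0.09, adjusted p = 0.863).

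CANT1, a calcium-activated nucleotidase of the Golgi, changed least of the regulatory partners. Its locus is chr17:76987798-77005949, minus strand. Its counts were 214, 881 and 500 in DMSO (26.5, 120 and 66.8 CPM) and 360, 1851 and 1000 in SAL (46.1, 203 and 123 CPM). The groups overlapped, while the pairs differed by nearly the same amount, 0.79, 0.75 and 0.88 on the log2 scale. The fitted log2 fold change was 0.81 (SE 0.10, adjusted p = 2.00e-05), which put CANT1 at rank 841.

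**Figure D1:**
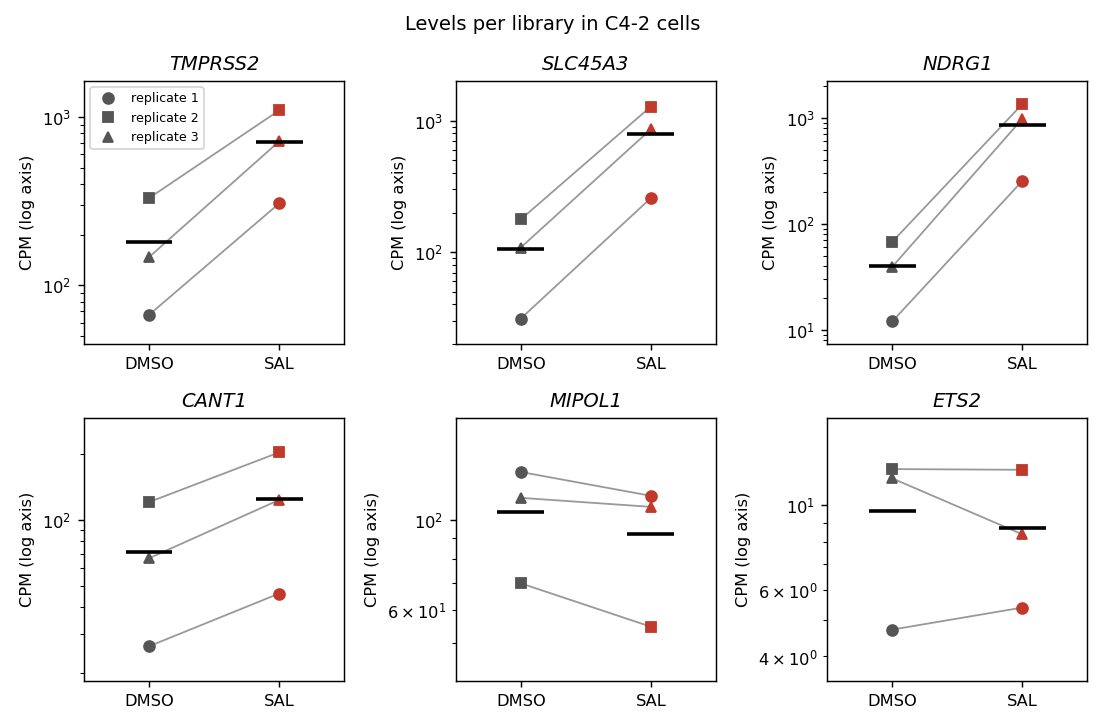
Levels of the 6 tested genes in CPM (log axis) in DMSO (grey) and SAL (red), with a symbol for each replicate, grey lines joining the libraries of a pair and black bars at the group means. The lines of the 4 regulatory partners run upward and nearly parallel, with replicate 1 lowest and replicate 2 highest in both groups, whereas those of MIPOL1 and ETS2 show no common rise.

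The libraries of a group differed widely in these genes. Replicate 2 had the highest and replicate 1 the lowest level of TMPRSS2, SLC45A3, NDRG1 and CANT1 in DMSO and again in SAL. The highest DMSO library exceeded the lowest by 4.95-fold for TMPRSS2, 5.68-fold for SLC45A3, 5.64-fold for NDRG1 and 4.54-fold for CANT1. For TMPRSS2 and CANT1 this spread was larger than the change with SAL. Reads outside genes were fewest in replicate 2 (30.1% in DMSO, 24.0% in SAL), more in replicate 1 (37.3 and 38.6%) and most in replicate 3 (48.3 and 43.3%), and the part of this share in the levels was not tested. Without the replicate number in the model, the log2 fold changes of NDRG1, SLC45A3, TMPRSS2 and CANT1 were 4.44, 2.92, 1.96 and 0.80, but none was called (adjusted p of 0.134, 0.422, 0.781 and 1.00, with 3 of them at an unadjusted p under 0.05), and 0.125% of all tested genes were.

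**Figure D2:**
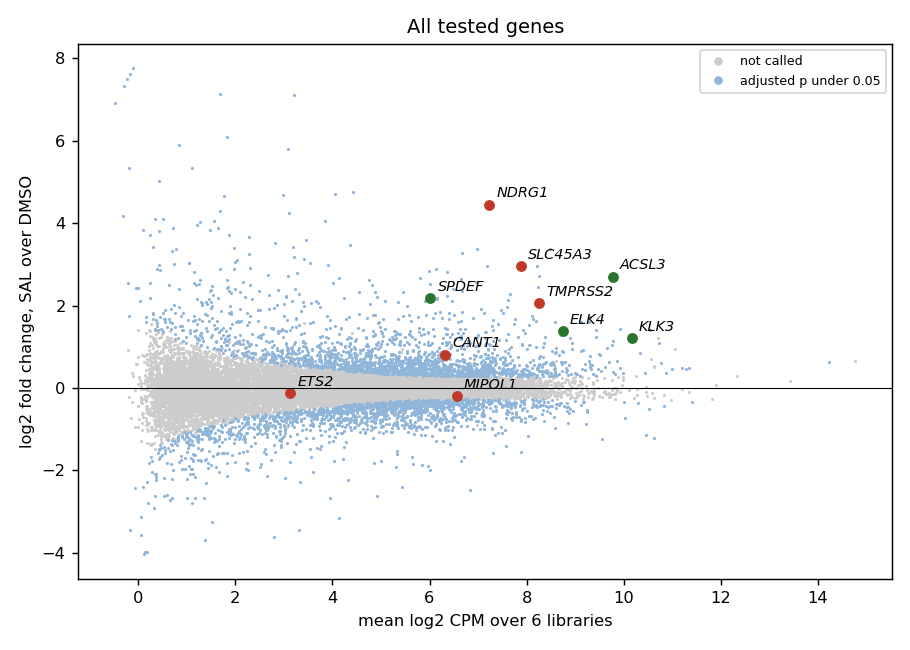
Log2 fold change (SAL over DMSO) against the mean log2 CPM over the 6 libraries for all 16835 tested genes, with genes called at an adjusted p under 0.05 in blue, the 6 tested genes of the rearrangements in red and 4 genes for comparison in green. NDRG1 at 4.45 stands above the other labelled genes, and ETS2 at -0.13 and MIPOL1 at -0.20 lie among the genes that were not called.

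MIPOL1 encodes a coiled-coil protein and spans chr14:37667099-38048330 on the plus strand, with FOXA1 10.4 kb beyond its end. It had 1057, 511 and 847 counts in DMSO (131, 69.9 and 113 CPM) and 894, 499 and 873 in SAL (114, 54.7 and 108 CPM). Replicate 2 was here the lowest of each group, and the groups overlapped. The log2 changes within pairs, -0.19, -0.35 and -0.07, were below 0 in all 3 pairs, as they were for 25.3% of the tested genes. The fitted log2 fold change of -0.20 did not pass the test (adjusted p = 0.164), and its 95% interval ran from -0.41 to 0.00.

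ETS2, a widely expressed ETS factor downstream of Ras and ERK signaling, spans chr21:40177107-40196879 on the plus strand. Its counts were low, 38, 91 and 88 in DMSO (4.71, 12.4 and 11.8 CPM) and 42, 113 and 68 in SAL (5.38, 12.4 and 8.38 CPM). One pair was higher, another nearly equal and the third lower, at 0.18, -0.01 and -0.48 on the log2 scale. The log2 fold change of -0.13 did not pass the test (adjusted p = 0.715), with a 95% interval of -0.55 to 0.30. The sign itself depended on replicate 3, without which the value was 0.0745.

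The 4 ETS genes that are joined to the regulatory partners were at or close to 0. ETV1 (chr7:13930854-14031050, minus strand) had 0 counts in all 6 libraries. ERG (chr21:39751949-40033704, minus strand), normally a factor of endothelial and blood-forming cells, had 1 count in DMSO replicate 2 and 0 elsewhere. ETV5 (chr3:185764103-185828107, minus strand) had 0, 2 and 0 counts in DMSO and 0, 2 and 1 in SAL.

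A count of 0 allows up to 3 counts, which corresponds to 0.329 to 0.410 CPM in a single library and to 0.0626 CPM over all 6, and this limit covers counting error only. ETV4 (chr17:41605212-41656988, minus strand), which with ETV1 and ETV5 forms the PEA3 subfamily, was the best counted of the 4, with 3, 7 and 5 counts in DMSO and 1, 4 and 7 in SAL. The groups overlapped, and the ratio of the summed SAL to DMSO levels was 0.731, with a 95% exact counting interval of 0.312 to 1.67. No fold change is given for ERG, ETV1 and ETV5, since both groups were at or under 3 counts in each library. The LNCaP lineage is known for expression of ETV1 from its MIPOL1 insertion, and here MIPOL1 was counted while ETV1 was listed at 0. In the annotation used for positions no exon base of ETV1 is shared with another gene, but the older annotation used for counting was not examined here for features that overlap ETV1, and the cause of the count of 0 was not tested.

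Per length of annotated exon, SLC45A3 (28.2 CPM per kb) and TMPRSS2 (27.5) were the highest of the 10 genes in DMSO, followed by CANT1 (16.1), MIPOL1 (3.66), NDRG1 (3.31), ETS2 (1.94) and ETV4 (0.189). In SAL, SLC45A3 stood at 213 CPM per kb, TMPRSS2 at 107, NDRG1 at 71.8, CANT1 at 28.1, MIPOL1 at 3.22, ETS2 at 1.75 and ETV4 at 0.136. By its mean, NDRG1 was below MIPOL1 in DMSO (MIPOL1 was the higher in 2 of 3 libraries) and above CANT1 in SAL (3 of 3 libraries). The ranges over 3 libraries of neighbours in this order overlapped, except below CANT1 and below ETS2 in both groups and below ETV4 in DMSO. SLC45A3 was above TMPRSS2 in 1 of 3 DMSO libraries and in 3 of 3 SAL libraries. The exon lengths, among them 28625 bases for MIPOL1, come from an annotation newer than the one used for counting. The levels per kb of all 10 genes and their order depend on it.

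The genes whose levels over the 6 libraries lay nearest to those of TMPRSS2, by the Euclidean distance of mean-centred log2 CPM, were KRT8P33 (distance 0.341), PMEPA1 (0.394) and HES2 (0.461). KRT8P33 is a pseudogene copy of KRT8, so its counts are uncertain. PMEPA1 is an androgen-induced membrane protein that dampens TGF-beta signaling. The log2 fold changes of KRT8P33, PMEPA1 and HES2 were 2.175, 1.96 and 2.087, against 2.07 for TMPRSS2. Similar changes follow from the choice of genes by distance, here and for NDRG1 below. The nearest genes to NDRG1 were the bZIP transcription factor MAF (0.477), the protein kinase A scaffold AKAP12 (0.840) and the BMP antagonist NBL1 (1.43), with log2 fold changes of 4.75, 4.69 and 6.09. ETV1, with no counts, could not be compared in this way.

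Of 9 further genes recorded as partners in ETS fusions, 8 were found among the symbols and 7 were tested. Of these, 3 were up-regulated and 0 were down-regulated by edgeR and also by DESeq2 (1 at an unadjusted p under 0.05, HNRNPA2B1), against 11.5% up and 9.37% down of all tested genes, and the median log2 fold change of the 7 was 0.22, against -0.0011 over all tested genes. ACSL3, which activates long-chain fatty acids, had 2985, 1938 and 3083 counts in DMSO (370, 265 and 412 CPM) and 18447, 15565 and 22400 in SAL (2362, 1707 and 2760 CPM). The groups were far apart, and the changes within pairs of 2.67, 2.69 and 2.74 gave a log2 fold change of 2.70 (SE 0.10, adjusted p = 5.69e-11). KLK2, a kallikrein protease of prostate secretion, rose from 527 ± 267 to 860 ± 313 CPM (log2 fold change 0.77, adjusted p = 5.79e-05). HERPUD1, a membrane protein of endoplasmic reticulum-associated degradation, changed by 0.50 (adjusted p = 0.00180), a call lost without replicate 3 (adjusted p = 0.0822). FOXP1, UBTF, DDX5 and HNRNPA2B1 were not called, with log2 fold changes of 0.22, 0.09, -0.01 and -0.22. OR51E2, with 0 to 3 counts per library, was not tested.

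**Figure D3:**
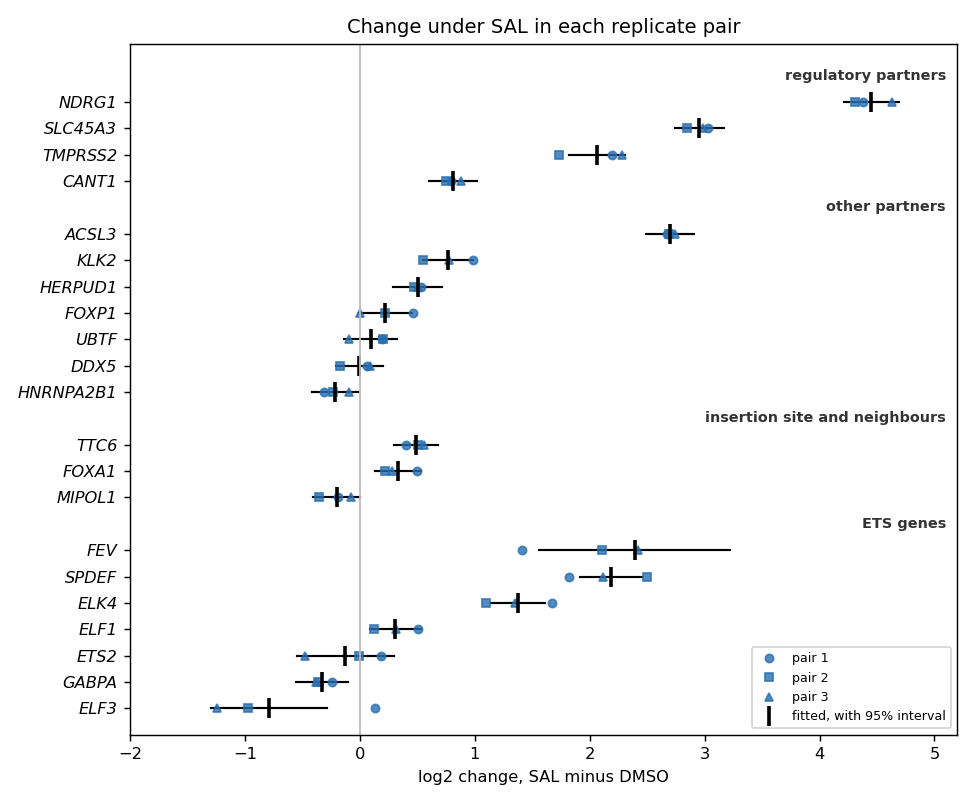
Log2 change (SAL minus DMSO) within each of the 3 pairs (blue symbols), with the fitted log2 fold change (vertical tick) and its 95% interval (horizontal line), for the regulatory partners, other fusion partners, MIPOL1 with 2 neighbours, and ETS genes. The 3 pairs of SLC45A3, CANT1 and ACSL3 lie close together, while those of ELF3 range from -1.24 to 0.13.

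The ETS family has 28 genes, of which 18 were tested. Of these, 4 were up-regulated, 2 were down-regulated and 12 were not called, with a median log2 fold change of 0.03. Over all tested genes 11.5% were up-regulated and 9.37% down-regulated, and 13327 of 16835 were not called. Of the 10 that were not tested, 8 had at most 3 counts in any library, and ETV1, ETV3L and FLI1 were at 0 throughout. SPDEF, the prostate-derived ETS factor of luminal and secretory cells, had 128, 393 and 248 counts in DMSO (15.9, 53.7 and 33.1 CPM) and 441, 2787 and 1174 in SAL (56.5, 306 and 145 CPM). Here every SAL library exceeded every DMSO library, and the log2 fold change was 2.19 (SE 0.12, adjusted p = 1.16e-08). FEV, an ETS factor of serotonergic neurons, had few counts, 3, 9 and 4 in DMSO and 11, 56 and 32 in SAL, and a log2 fold change of 2.39 with the larger SE of 0.39 (adjusted p = 0.000378). It passed the filter on low counts only through its SAL libraries, so its call is a description only. With at least 10 counts required in every library, FEV was not tested.

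ELK4, a ternary complex factor that acts with SRF, lies on the same strand as SLC45A3, at chr1:205566684-205601139, with its start 25.8 kb beyond the end of SLC45A3 and 0 protein-coding genes between them, and transcripts that join both genes are known in prostate tissue. ELK4 had 1392, 2095 and 2859 counts in DMSO (172, 286 and 382 CPM) and 4308, 5603 and 7921 in SAL (552, 614 and 976 CPM). The groups did not overlap, and the log2 fold change was 1.38 (95% interval 1.14 to 1.61, adjusted p = 5.14e-07), below the interval of SLC45A3 (2.74 to 3.17). The order of the libraries differed between these neighbours, since replicate 3 was highest for ELK4 and replicate 2 for SLC45A3. Gene counts do not separate joined transcripts from those of each gene. On the other strand 3.73% of the exon bases of ELK4 are shared with other genes, among them MFSD4 (MFSD4A in the newer annotation), whose log2 fold change was 1.80 (adjusted p = 1.41e-06), and the reads on shared bases cannot be told apart.

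The remaining ETS calls were smaller. ELF1 (log2 fold change 0.31, adjusted p = 0.0471) was up-regulated, and GABPA, which controls nuclear genes of mitochondrial respiration (-0.33, adjusted p = 0.0403), and the epithelial factor ELF3 (-0.79, adjusted p = 0.0277) were down-regulated. ELF3 was lower in 2 of 3 pairs. These 3 calls were lost with DESeq2, where the adjusted p was 0.201, 0.176 and 0.0741, and without replicate 3 (0.347, 0.366 and 0.347). ELF1 also lost it without replicate 1 (0.150), and GABPA and ELF3 without replicate 2 (0.0742 and 0.179). It was lost as well for ELF1 with DESeq2 size factors (0.0562) and with at least 10 counts per library (0.0507), and for GABPA with no filter (0.0613). Of the annotated exon bases of GABPA, 12.1% are shared with ATP5J on the other strand. For ELF3, 18.5% are shared with genes that have no symbol in the counts. The part of these shared bases in the changes was not tested. EHF, an epithelial ETS factor, had the highest mean level of the family in DMSO, 724 ± 135 CPM, and stood at 719 ± 132 CPM in SAL, with a log2 fold change of -0.01 and a 95% interval of -0.20 to 0.18.

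**Figure D4:**
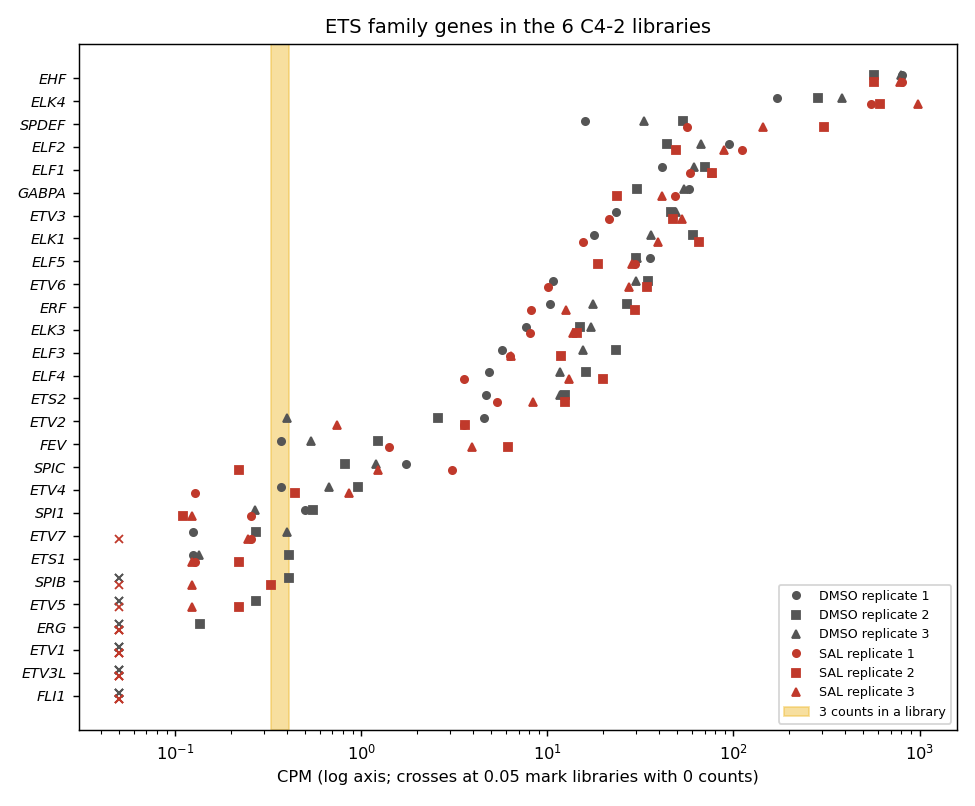
Level of the 28 ETS family genes in CPM (log axis) in each DMSO (grey) and SAL (red) library, ordered by mean level, with crosses for libraries with 0 counts and a yellow band from 0.329 to 0.410 CPM where 3 counts in a library fall. ETV5, ERG and ETV1 lie at the bottom at or under the band and ETV4 around it, whereas EHF and ELK4 lie above 100 CPM in every library.

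Regulators of the ETS proteins and genes that report ERK signaling, through which ETV1, ETV4 and ETV5 are usually induced, made a list of 22 genes, of which 15 were tested, 2 were up-regulated and 3 were down-regulated (median log2 fold change 0.10), against 11.5% and 9.37% of all tested genes. PHLDA1, an ERK-induced gene, had 280, 557 and 574 counts in DMSO and 73, 227 and 173 in SAL. All SAL libraries were below all DMSO libraries, and the log2 fold change was -1.77 (SE 0.12, adjusted p = 3.89e-08). SPRY1, an inhibitor of receptor tyrosine kinase signaling, fell by 0.90 on the log2 scale (adjusted p = 0.000213), and TRIM25, a ubiquitin ligase, fell by 0.40 (adjusted p = 0.00874, or 0.188 without replicate 3). ATXN1, a partner of the repressor CIC that silences ETV1, ETV4 and ETV5, rose by 0.61 (adjusted p = 0.000629), and DUSP4, a phosphatase of ERK, by 0.43 (adjusted p = 0.00863, or 0.121 without replicate 2, 0.114 without replicate 3 and 0.0522 with DESeq2). CIC itself (log2 fold change 0.23, adjusted p = 0.223) was not called, nor were RFWD2 (0.24, adjusted p = 0.107) and DET1 (-0.35, adjusted p = 0.332), which take part in degrading the PEA3 factors, or SPOP (0.10, adjusted p = 0.513), an adaptor for degradation of ERG. Of the genes that report ERK signaling, SPRY2 (0.87, adjusted p = 0.181, higher in all 3 pairs), SPRED1, SPRED2, CCND1 and EPHA2 were not called either. DUSP6, SPRY4, SPRED3, IER3, EGR1, FOSL1 and EPHA4 did not pass the filter on low counts and were not tested.

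Of 24 genes around the rearrangement sites 14 were tested and 2 were called, against 20.8% of all tested genes, or 4 without replicate 1 and 0 without replicate 3. Between ERG and TMPRSS2, 2802.5 kb apart, lie 14 protein-coding genes with a symbol in the counts, of which 9 were tested and 0 were called by edgeR or by DESeq2 (1 and 0 at an unadjusted p under 0.05), with log2 fold changes from -0.79 (LCA5L) to 0.44 (IGSF5) and a median of -0.12. Next to ETV1, DGKB, a diacylglycerol kinase, had 38 to 77 counts per library and a log2 fold change of -0.11 (adjusted p = 0.744), where ETV1 had 0. Within 1 Mb of MIPOL1, 5 of 10 genes were tested and 2 were up-regulated, with log2 fold changes from -0.67 (SLC25A21, adjusted p = 0.0614) to 0.49. FOXA1, a pioneer factor that opens chromatin in luminal cells, stood at 530 ± 310 CPM in DMSO and 645 ± 335 CPM in SAL (log2 fold change 0.33, adjusted p = 0.0204), and TTC6, on the strand of MIPOL1, at 255 ± 61.3 and 358 ± 83.2 CPM (0.49, adjusted p = 0.00106). Both calls were lost without replicate 3, with adjusted p of 0.294 and 0.132.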

How the data were processed

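RNA-seq of 3 DMSO and 3 SAL libraries of C4-2 cells was analysed. The authors prepared stranded total RNA libraries, applied quality trimming, aligned only read 1 with TopHat2 2.1.0 against hg19 and counted reads on exons with HTSeq 0.11.2 and gencode v19, ignoring strand, and the deposited values are raw counts per gene symbol. Of the 55765 symbols, 523 rRNA symbols were dropped, and edgeR's filterByExpr kept 16835 of the remaining 55242. TMM-normalized counts were compared with edgeR 4.0.16 (quasi-likelihood test, R 4.3.3), with replicate as a block. Dispersions were robust, with Benjamini-Hochberg adjustment at 0.05. The study's methods name a paired test, and deviations from group means correlated at 0.886, 0.856 and 0.739 between libraries sharing a number, so the numbers pair them. The labels do not say how replicates were grown. With the block, p-values weigh the change against its spread over the 3 pairs, moderated across genes, and not against the spread between libraries of a group. The number of libraries (6) limits precision.

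CPM are counts per 1000000 after TMM scaling, log2 CPM use a prior count of 2, and fitted fold changes use edgeR's default. The SE is the absolute log2 fold change over the square root of F. Intervals are 95% from the total degrees of freedom of the quasi-likelihood test. These add prior degrees, borrowed across genes, to the residual ones. Counting intervals and limits cover counting error only. Positions are from GENCODE v44 lifted to GRCh37, the assembly of hg19. The fit was tested on simulated data.

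The 10 genes and all lists were chosen with earlier results of these data known. Named are the 10 genes, up to 6 called members of each other list by adjusted p, KLK3, and the 3 nearest genes of TMPRSS2, ETV1 and NDRG1. Other genes given by name were chosen after their values had been seen. Cell type markers were lists of 2 to 8 genes, and PECAM1 of the endothelial list and 1 fusion partner had no row under their symbol. The alternatives were DESeq2 1.42.0 with the block, DESeq2 size factors, no block, a minimum of 10 counts per library, no filter, mitochondrial genes removed, rRNA kept, and each replicate left out.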

Additional observations from a re-analysis of the deposited data

How the results depend on the processing

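The calls of NDRG1, SLC45A3, TMPRSS2 and CANT1 and their direction held under all alternatives except the model without the replicate block, and 4 of the 10 genes were called each time a replicate was left out. Without the block, 21 of all tested genes were called (3508 with it) and 0 in each of the lists, that is of the 10 genes, the ETS family, the other partners, the regulators and ERK genes, and the neighbours (3, 3, 1, 1 and 0 at an unadjusted p under 0.05). DESeq2 with the block called 2240 genes and 3 of the ETS family. With each replicate left out, calls ranged from 1233 (without replicate 3) to 4398 over all genes, from 3 to 5 in the ETS family, from 2 to 3 of the other partners, from 3 to 7 of the regulators and ERK genes, and from 0 (without replicate 3) to 4 (without replicate 1) of the neighbours. Only ETS2 changed sign, with log2 fold changes from -0.23 to 0.0745 (without replicate 3). Of 23 single genes followed, 8 lost their call without replicate 3, among them ELF1, ELF3, GABPA, HERPUD1, DUSP4 and TRIM25. The causes were not tested. ERG, ETV1 and ETV5, with at most 3 counts in each library, gave no fold change.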
